A study of Mus musculus with 9 samples.

Results

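The expression of 9 genes of the type I interferon pathway was examined in proliferating mouse macrophage lines of 3 origins. These were the receptor subunits Ifnar1 and Ifnar2, the signal transducer Stat2, its DNA-binding partner Irf9, and the interferon regulatory factors Irf1, Irf2, Irf3, Irf5 and Irf7. They were taken by symbol from a table of 24411 genes, in which all 9 were found, and all 9 were among the 11753 genes that reached 1 TPM (a length-adjusted share of all transcripts in a library, scaled to 1000000) in at least 3 of the 9 libraries. Macrophage lines had been grown with M-CSF from C57BL/6 mice: YS lines from the yolk sac at E9.5, FL lines from the fetal liver at E14.5, and BM lines from adult bone marrow. Each origin had 3 lines (n = 3), each a bulk culture from its own dish or well that had grown out of colonies in long culture. The starting cells were pooled from several animals. It is not stated whether each line had its own pool, so lines of an origin may share a pool. The p-values therefore measure the spread among such cultures, which may hold no spread between animals. Origin, developmental stage and culture history cannot be told apart. The labels name no stimulus, so the values describe lines kept in M-CSF.

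Type I interferons bind a receptor built from IFNAR1 and IFNAR2, whose kinases TYK2 and JAK1 phosphorylate STAT proteins, STAT2 among them. STAT2 and IRF9 are part of a complex that switches on a broad set of antiviral genes, among them Irf7, Irf9 and Stat2 themselves. Upstream of this, IRF3 is held ready in resting cells, IRF7 is mostly made after a first round of signalling, and IRF5 acts below Toll-like receptors. IRF1 activates and IRF2 largely represses overlapping target genes.

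Each of the 9 macrophage markers examined reached 1 TPM in some library, and Csf1r, the M-CSF receptor, lay between 1086 and 2441 TPM. Their summed level was lower in YS lines (4457 to 9603 TPM) than in BM lines (11855 to 13548 TPM) and FL lines (11987 to 28606 TPM), much of it through Lyz2, with means of 2575, 7063 and 13800 TPM. The part of this difference in those of Irf7 and Stat2 was not tested. Lists of T and NK cell, B cell, mast cell and fibroblast markers held no gene at 1 TPM in any library. BM line 2 stood apart: it held 215 TPM of the globin gene Hba-a1, against 0.30 in the other 2 BM lines, and for 45 genes that YS line 2 expressed (minimum 20 TPM) and those BM lines did not (under 0.5 TPM) its level was a median of 14.1% of that in YS line 2. Only YS line 2 was compared in this way, so these transcripts are not tied to that line. The calls of the 9 genes and of the lists below are therefore also given without it. The median gene was 0.11 (log2) higher in YS than in BM lines, 0.09 higher in FL than in BM lines and 0.02 higher in YS than in FL lines, and the changes below are to be read against these shifts.

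On the TPM scale the 9 genes were moderately to highly expressed. Over all 9 lines, Irf5 had the highest mean level at 198 TPM, followed by Irf7 at 143 TPM and Ifnar2 at 113 TPM. Stat2 and Irf9 averaged 94.6 and 87 TPM, and Ifnar1, Irf1, Irf2 and Irf3 lay between 46.6 and 58.3 TPM. Even Irf3, the lowest, exceeded 65.5% of the tested genes. The order was not fixed. Irf7 was the most abundant of the 9 in YS line 2 and the least abundant in BM line 3, whereas Irf5 held the first place in all FL and BM lines.

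**Figure D1:**
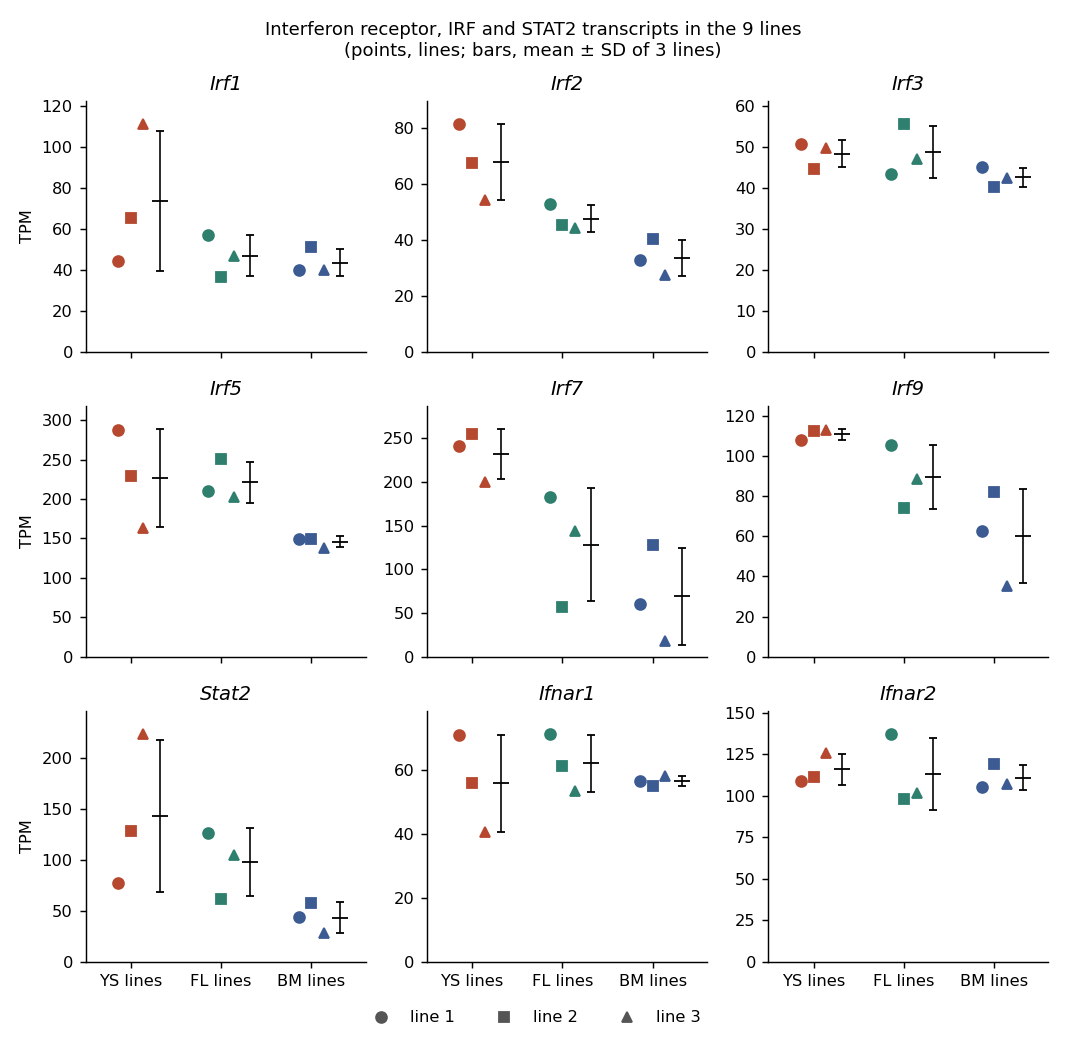
TPM of the 9 genes (y axis, starting at 0) in the YS, FL and BM lines (x axis), with 1 point per line and the mean ± SD of 3 lines beside the points. Mean levels of Irf7 and Stat2 were highest in YS and lowest in BM lines, and YS and FL lines overlapped for Stat2. Irf7 spread widely among FL and BM lines and Stat2 in every group. All groups overlapped for Irf1, Irf3, Ifnar1 and Ifnar2.

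Irf7, the regulator that amplifies interferon production, showed the largest difference between origins. Its level was 241, 255 and 200 TPM in YS lines 1, 2 and 3, 183, 56.2 and 144 TPM in FL lines 1, 2 and 3, and 59.9, 128 and 18.4 TPM in BM lines 1, 2 and 3. All YS lines lay above all FL and all BM lines, whereas FL and BM lines overlapped. The YS lines were uniform, their highest being 1.28 times the lowest, while this ratio was 3.25 among FL lines and 6.96 among BM lines. On the log2(TPM + 1) scale Irf7 was 2.12 ± 0.65 (SE) higher in YS than in BM lines, a 4.34-fold difference (limma, Benjamini-Hochberg adjusted p = 0.042). It was 1.11 ± 0.65 higher in FL than in BM lines (adjusted p = 0.27, limma) and 1.01 ± 0.65 higher in YS than in FL lines (adjusted p = 0.36, limma), and neither difference passed the threshold. Single BM lines changed these calls. Without BM line 2 the difference was 2.75 (adjusted p = 0.02) and that between FL and BM lines became 1.74 (adjusted p = 0.094), both then called by limma. Without BM line 3 the FL minus BM difference was 0.38 (adjusted p = 0.7, limma), the YS minus BM difference was 1.39 (adjusted p = 0.11) and without BM line 1 it was 2.21 (adjusted p = 0.1), neither called by limma.

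Stat2 encodes the transducer that is specific to type I and type III interferon signalling. It measured 77.3, 128 and 224 TPM in YS lines 1 to 3, 127, 61.3 and 105 TPM in FL lines 1 to 3, and 43.5, 57.9 and 28 TPM in BM lines 1 to 3. Every YS line and every FL line lay above every BM line, the closest pair being FL line 2 and BM line 2, and YS and FL lines overlapped. The difference between YS and BM lines was 1.63 ± 0.43 on the log2 scale, or 3.1-fold (limma, adjusted p = 0.024), and stayed called in each of the 20 alternative analyses (1.25 to 2.01). FL lines were 1.16 ± 0.43 higher than BM lines, or 2.23-fold (limma, adjusted p = 0.093). This second call was fragile. It was lost when FL line 1 (0.94, adjusted p = 0.24), FL line 3 (1.07, adjusted p = 0.2), BM line 1 (1.19, adjusted p = 0.19), BM line 3 (0.88, adjusted p = 0.28) or YS line 2 (1.16, adjusted p = 0.12) was left out of the limma fit, and it was 1.39 (adjusted p = 0.096) without BM line 2. YS and FL lines differed by 0.48 ± 0.43 (limma, adjusted p = 0.5).

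Irf9, which gives the complex with STAT2 its DNA specificity, was almost constant among YS lines. It measured 108, 113 and 113 TPM in YS lines 1 to 3, 106, 74.1 and 88.7 TPM in FL lines 1 to 3, and 62.5, 82.1 and 35.4 TPM in BM lines 1 to 3. YS lines lay above all FL and BM lines, and FL and BM lines overlapped. Irf9 was 0.96 ± 0.27 higher in YS than in BM lines, or 1.95-fold (limma, adjusted p = 0.031), which passed the false discovery rate of 0.1 but not the 2-fold minimum of the call. The difference exceeded 2-fold without BM line 2 (1.23, adjusted p = 0.017, limma) and without BM line 1 (1.03, adjusted p = 0.074, limma), and it was 0.63 (adjusted p = 0.062, limma) without BM line 3. FL lines exceeded BM lines by 0.64 ± 0.27 (limma, adjusted p = 0.14; 0.30 without BM line 3) and fell short of YS lines by 0.33 ± 0.27 (limma, adjusted p = 0.47).

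Of the factors that act on the interferon genes and their targets directly, Irf2 and Irf5 differed by origin within narrow limits. Irf2 measured 81.7, 67.4 and 54.4 TPM in YS lines 1 to 3, 53, 45.3 and 44.4 TPM in FL lines 1 to 3, and 32.8, 40.5 and 27.6 TPM in BM lines 1 to 3. It was the only one of the 9 genes in which no pair of groups overlapped, in the order YS, FL, BM. The difference between YS and BM lines was 0.99 ± 0.18 (1.98-fold; limma, adjusted p = 0.0073), just under the 2-fold minimum, and it was 1.13 (adjusted p = 0.0097, limma) without BM line 2 and 1.14 (adjusted p = 0.0072, limma) without YS line 3. FL lines exceeded BM lines by 0.50 ± 0.18 (limma, adjusted p = 0.092), and the excess of YS over FL lines was 0.49 ± 0.18 (limma, adjusted p = 0.15).

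Irf5 measured 288, 229 and 163 TPM in YS lines 1 to 3, 210, 251 and 203 TPM in FL lines 1 to 3, and 149, 150 and 138 TPM in BM lines 1 to 3. YS lines spread wider than FL lines around a similar mean, and all of both groups lay above the BM lines, which were close to each other. The differences from BM lines were 0.60 ± 0.19 for YS lines (limma, adjusted p = 0.047) and 0.60 ± 0.19 for FL lines (limma, adjusted p = 0.059), each 1.51-fold and so below the 2-fold minimum. The YS difference missed the false discovery rate of 0.1 without BM line 1 or BM line 3 (limma, adjusted p = 0.11 and 0.14). The FL difference missed it without FL line 1, FL line 2 or any 1 BM line (limma, adjusted p = 0.11 to 0.17). YS and FL lines differed by 0.00 ± 0.19 (limma, adjusted p = 0.99).

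Irf1, an activator of interferon target genes, measured 44.4, 65.1 and 112 TPM in YS lines 1 to 3, 57, 36.7 and 46.9 TPM in FL lines 1 to 3, and 39.8, 51.1 and 39.7 TPM in BM lines 1 to 3. Its groups overlapped in every comparison, and YS line 3 was the one line far above the rest. The YS minus BM difference was 0.66 ± 0.31 (limma, adjusted p = 0.14). It was 0.31 (adjusted p = 0.34, limma) without YS line 3 and 0.96 (adjusted p = 0.033, limma) without YS line 1.

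Irf3 and both receptor subunits passed the test in no comparison. Irf3 measured 50.8, 44.7 and 49.8 TPM in YS lines 1 to 3, 43.4, 55.7 and 47 TPM in FL lines 1 to 3, and 45.1, 40.3 and 42.5 TPM in BM lines 1 to 3. Ifnar1 measured 71.2, 56.1 and 40.8 TPM in YS lines 1 to 3, 71.5, 61.5 and 53.7 TPM in FL lines 1 to 3, and 56.8, 55.1 and 58.3 TPM in BM lines 1 to 3. Ifnar2 measured 109, 111 and 126 TPM in YS lines 1 to 3, 137, 98.1 and 102 TPM in FL lines 1 to 3, and 105, 119 and 107 TPM in BM lines 1 to 3. Groups overlapped in all 9 of these comparisons. Group differences lay between -0.18 ± 0.19 for Ifnar1 in YS against FL lines and 0.18 ± 0.12 for Irf3 in FL against BM lines, with adjusted p-values of 0.29 and above in limma. The sign of these small differences was not stable: that of Ifnar2 between YS and BM lines, 0.06 ± 0.14, turned to -0.05 under median-of-ratios scaling.

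**Figure D2:**
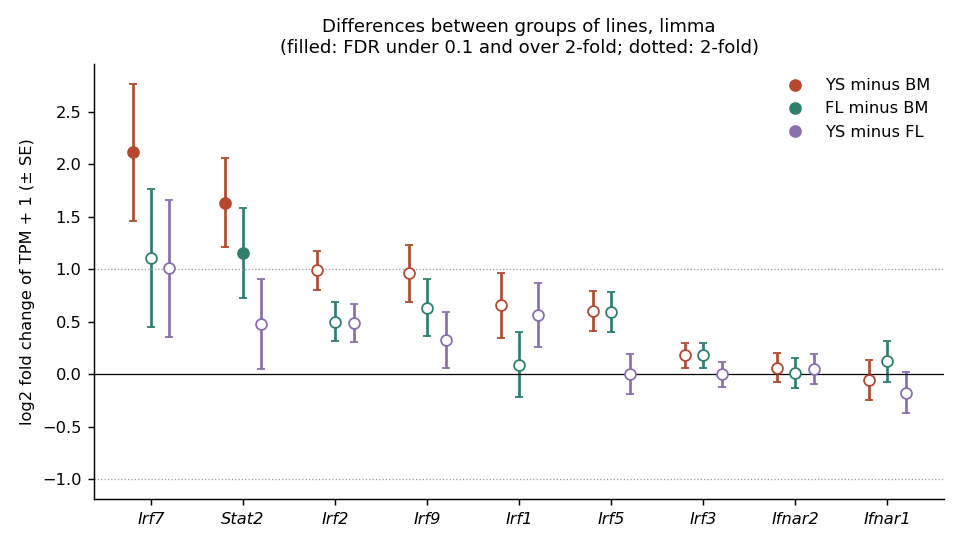
Log2 fold change of TPM + 1 with its standard error (y axis) for each gene (x axis) in the 3 comparisons. Filled points passed a false discovery rate of 0.1 and 2-fold: Irf7 (2.12) and Stat2 (1.63) in YS against BM lines and Stat2 (1.16) in FL against BM lines.

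Over the 9 genes, 2 were called between YS and BM lines, Irf7 and Stat2, both higher in YS lines, while 12.8% of all tested genes were called in this comparison (7.57% called higher). FL and BM lines differed in 1 of 9, Stat2, against 10.3% of all tested genes (6.01% called higher). None of the 9 was called between YS and FL lines, where 3.79% of all tested genes were called. There limma gave 1 of the 9, Irf2, an unadjusted p under 0.05, beside 3016 of all 11753 tested genes. At the false discovery rate alone, 5 of 9 passed in YS against BM lines (Irf2, Irf5, Irf7, Irf9 and Stat2) and 3 of 9 in FL against BM lines (Irf2, Irf5 and Stat2), where 37.9% and 27.6% of all tested genes passed, and 0 of 9 passed in YS against FL lines, against 12.8%. Lines of the 2 groups did not overlap for 5 of 9 genes in YS against BM, 3 of 9 in FL against BM and 3 of 9 in YS against FL lines, compared with 49%, 49.5% and 26.1% of all tested genes. These are counts of few genes and stand near the shares of all genes. The median of their log2 differences was 0.66 in YS against BM lines, 0.50 in FL against BM lines and 0.33 in YS against FL lines, beside 0.11, 0.09 and 0.02 for all tested genes. Without BM line 2, Irf2 and Irf9 joined Irf7 and Stat2, giving 4 called genes between YS and BM lines, and without BM line 3 the count was 1. Between FL and BM lines the count was 2 without BM line 2 and 0 without FL line 1, FL line 3, BM line 1, BM line 3 or YS line 2.

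The complex that holds STAT2 and IRF9 binds a GAAA-type element, searched here as GAAANNGAA on both strands, while STAT dimers bind a palindrome, searched as TTCNNNGAA. In the RefSeq promoter windows of GRCm38.p6, which run from 250 bases before to 50 bases after each gene start, the first occurs in 8.56% and the second in 8.3% of all 32851 windows. The 9 genes have 11 windows, of which 2 hold the first and 4 the second. Sequences that hold these letters wholly upstream of the start are shown for Stat2, Irf1 and Irf2, with the matches in capitals, each on the plus strand from 5′ to 3′. That of Ifnar2 is not shown.
Stat2, chr10:128270248-128270330: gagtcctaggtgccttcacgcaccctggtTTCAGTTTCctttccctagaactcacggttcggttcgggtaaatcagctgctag
Irf1, chr11:53769879-53769977: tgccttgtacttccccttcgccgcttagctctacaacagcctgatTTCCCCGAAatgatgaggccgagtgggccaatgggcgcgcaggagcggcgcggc
Irf2, chr8:46739495-46739574: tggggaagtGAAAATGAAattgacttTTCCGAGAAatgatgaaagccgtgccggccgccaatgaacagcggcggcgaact
The Stat2 match is a GAAANNGAA element read on the opposite strand, 221 bases before the start, and Stat2 holds no palindrome in its window. Irf1 holds the palindrome 90 bases before the first of its starts, and Irf2 holds an element of each kind, 241 and 224 bases before its start. Windows of Ifnar1 and Ifnar2, whose levels overlapped between all groups as those of Irf1 did, also hold the palindrome. Those of Irf3, Irf5, Irf7 and Irf9 hold neither, which says only that these letters are not in these windows. Among 37 interferon target genes with a window, described next, 20 (54.1%) held the GAAA-type element, beside 9.76% of all genes with a window.

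Interferon target genes were examined as a list of 44 genes, all of which passed the expression filter. Between YS and BM lines 31 of the 44 were called (70.5%, beside 12.8% of all tested genes), all higher in YS lines, and the list median was 1.53 (log2). Mx1 differed most, by 5.27 ± 0.74 (limma, adjusted p = 0.0029), with 39.2 to 105 TPM in YS lines and 0 to 3.22 TPM in BM lines. Ifi44 was 4.89 ± 1.27 higher (limma, adjusted p = 0.023) and Bst2, which tethers budding virions to the cell surface, 2.08 ± 0.45 higher (limma, adjusted p = 0.013). The count was 17 without YS line 3, 20 without BM line 1, 14 without BM line 3 and 35 without BM line 2. Between FL and BM lines 7 of 44 were called (15.9%, beside 10.3% of all tested genes), all higher in FL lines, with a list median of 0.77. Mx1 differed there by 3.55 ± 0.74 (limma, adjusted p = 0.012). That count ranged widely: it was 2 without FL line 1, 3 without FL line 3, 3 without BM line 1, 1 without BM line 3, 10 without BM line 2 and 11 without FL line 2. Between YS and FL lines 0 of 44 were called by limma at this sample size, beside 3.79% of all tested genes. The list median was 0.70 and 42 of 44 differences were positive, beside 0.02 and 6130 of 11753 for all tested genes. The 44 genes share an order of lines, described below, so they are not 44 separate observations. By limma, 4 of 44 had an unadjusted p under 0.05, beside 3016 of all 11753 tested genes. At the false discovery rate of 0.1 alone 1 of 44 passed, at less than the 2-fold minimum, beside 12.8% of all tested genes.

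**Figure D3:**
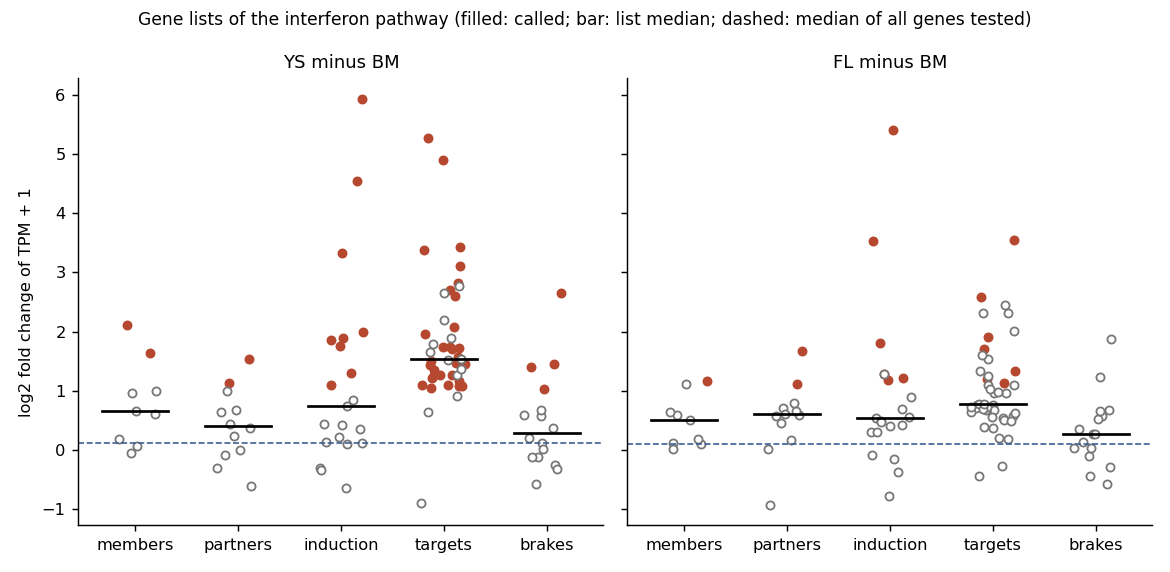
Log2 fold change of TPM + 1 (y axis) of every tested gene of each list (x axis) for YS minus BM and FL minus BM lines, with called genes filled, list medians as bars and the median of all tested genes dashed. The target list had the highest median in both comparisons, 1.53 and 0.77, and the 9 genes studied here had medians of 0.66 and 0.50.

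Within each origin the lines took the same order for almost every target gene, and Stat2, Irf9 and Irf1 took it too. YS line 3 was the highest YS line for 42 of 44 targets and YS line 1 the lowest for 42, FL line 1 was the highest FL line for 40 and FL line 2 the lowest for 43, and BM line 2 was the highest BM line for 43 and BM line 3 the lowest for 43. Over all tested genes these shares were 33.9%, 33.8%, 44.9%, 35.7%, 31.4% and 33%, in the same order. Stat2, Irf9 and Irf1 took this order in all 3 groups. For Irf9 it was narrow among YS lines, where the highest line was 1.05 times the lowest. For Irf1 it rested on close values in BM lines 1 and 3 (39.81 and 39.73 TPM). Irf7 took it among FL and BM lines but not among YS lines, where its highest line was 1.28 times the lowest. Ifnar2 took it among YS and FL lines, and Irf2 and Irf5 took it among BM lines. BM line 2 was also the line that held transcripts abundant in YS line 2 and under 0.5 TPM in the other BM lines, though no other YS or FL line was compared. Of the 44 targets 31 were called higher in YS than in BM lines, as was Stat2. The part of such shared transcripts in the place and level of BM line 2 for these genes was not tested. Averaged over the targets, the level relative to the mean of 9 lines was 0.07, 0.99 and 1.55 (log2) in YS lines 1 to 3, 0.72, -0.77 and 0.32 in FL lines 1 to 3, and -0.94, -0.14 and -1.79 in BM lines 1 to 3. FL line 2 thus lay below BM line 2, and YS line 1 below FL lines 1 and 3.

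Irf5, Irf2 and Ifnar1 ran against this order among YS lines. All 3 were highest in YS line 1 and lowest in YS line 3, where the targets were highest. Irf5 was also highest in FL line 2, the FL line with the lowest targets. Among BM lines Irf5 and Ifnar1 varied little, the highest line being 1.08 and 1.06 times the lowest.

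**Figure D4:**
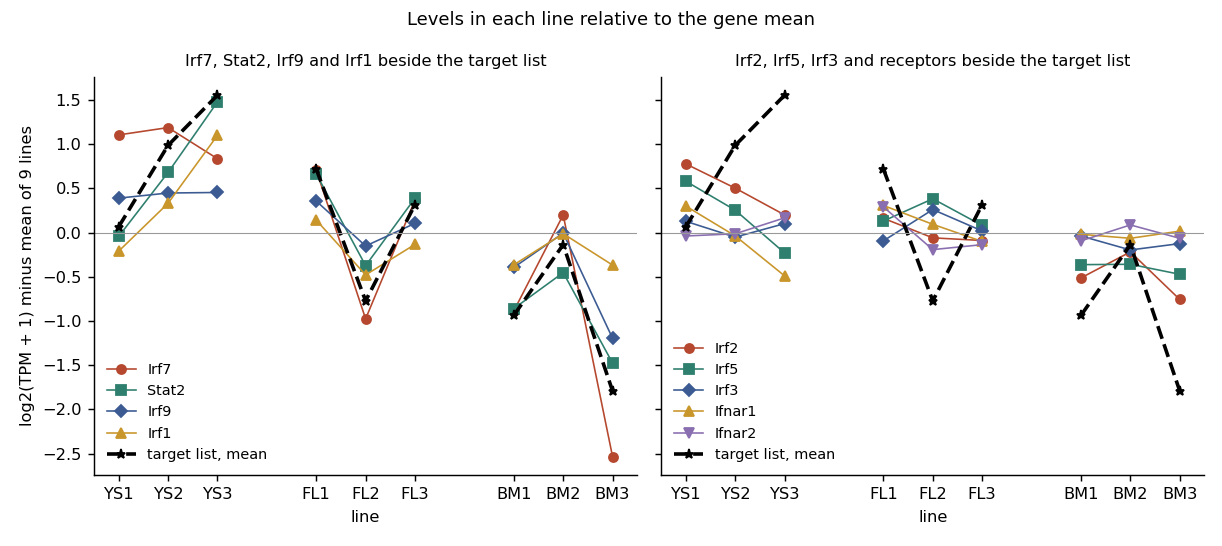
Log2(TPM + 1) minus the mean of all 9 lines (y axis) in each YS, FL and BM line (x axis), for Irf7, Stat2, Irf9 and Irf1 on the left and Irf2, Irf5, Irf3, Ifnar1 and Ifnar2 on the right, with the mean of 44 target genes dashed. Stat2 follows the target list from 1.48 in YS line 3 to -1.48 in BM line 3, and Irf7 reaches -2.54 there, while Irf3 lies between -0.20 and 0.26 and Ifnar1 between -0.49 in YS line 3 and 0.31 in FL line 1.

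The genes most like Irf7 and Stat2 were sought by the root mean square difference of centred log2(TPM + 1) values over the 9 lines. For Stat2 the nearest were Ifih1, which encodes the RNA sensor MDA5 (0.15), the interferon-inducible GTPase Irgm2 (0.16) and Parp14 (0.20). Ifih1 measured 34.7, 48.7 and 72.2 TPM in YS lines 1 to 3, 47.2, 21.9 and 33.6 TPM in FL lines 1 to 3, and 14.7, 21.8 and 8.33 TPM in BM lines 1 to 3, the same order of lines within each origin as Stat2. Irf7 had no neighbour so close: Gm3604, Oasl2 and Sp100 lay at 0.47, 0.47 and 0.48.

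Pairs of members were then set side by side within each line, where scaling between libraries plays little part. The ratio of Irf7 to Irf3, both as TPM + 1, was 4.67, 5.61 and 3.95 in YS lines 1 to 3, 4.14, 1.01 and 3.02 in FL lines 1 to 3, and 1.32, 3.12 and 0.447 in BM lines 1 to 3. Every YS line exceeded every BM line, and BM line 3 was the only line with less Irf7 than Irf3. The log2 ratio was 1.94 higher in YS than in BM lines (exact permutation test, two-sided p = 0.1, the smallest that 3 against 3 lines allow; 0.45 after Benjamini-Hochberg adjustment over 9 tests). It was 1.21 without BM line 3 and 2.61 without BM line 2. The design cannot reach a p of 0.05 in these tests.

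The ratio of Irf1 to Irf2 was 0.549, 0.967 and 2.03 in YS lines 1 to 3, 1.07, 0.814 and 1.06 in FL lines 1 to 3, and 1.21, 1.26 and 1.43 in BM lines 1 to 3. YS lines thus ranged on both sides of all other lines. All FL lines lay below all BM lines, with a log2 difference of -0.41 (exact permutation p = 0.1, adjusted p = 0.45). The ratio of Ifnar1 to Ifnar2 lay between 0.328 and 0.655 in all 9 lines, with overlapping groups, so Ifnar2 transcripts exceeded Ifnar1 transcripts in each line. Exact permutation p-values for the remaining ratio comparisons were 0.2 to 1.

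**Figure D5:**
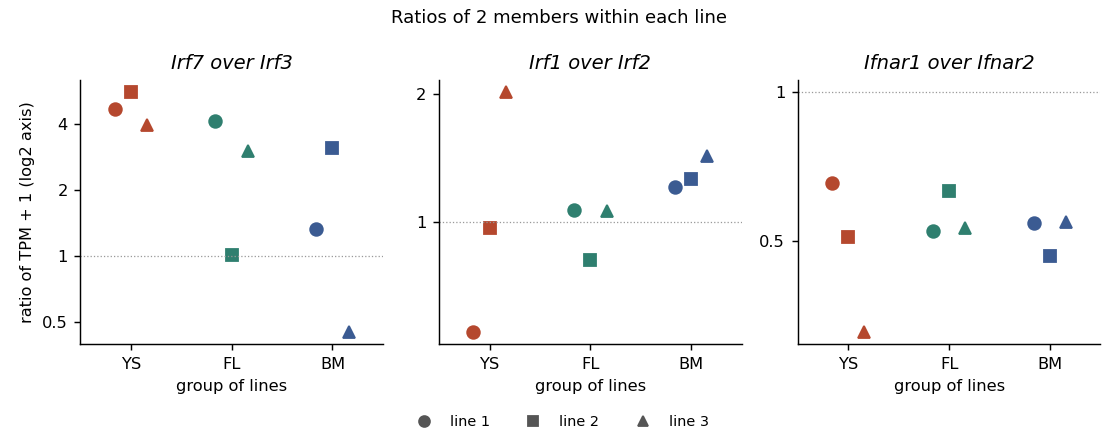
Ratio of TPM + 1 of the named pair (y axis, log2 axis) in each line by group (x axis), with a dotted line at 1 where both transcripts are equal. Irf7 over Irf3 ran from 0.447 in BM line 3 to 5.61 in YS line 2, while Ifnar1 over Ifnar2 stayed below 1 in every line.

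The other signalling components were described by a list of 15 receptors, kinases, STATs and IRFs, 12 of which were tested. Between YS and BM lines 2 were called (16.7%, beside 12.8% of all tested genes), both higher in YS lines: Irf8, a myeloid lineage factor, by 1.54 ± 0.26 (limma, adjusted p = 0.0048), and the receptor kinase Tyk2 by 1.12 ± 0.29 (limma, adjusted p = 0.024). Tyk2 rested on YS line 3 with 112 TPM, and without that line its difference was 0.74, under 2-fold. Between FL and BM lines 2 were called (16.7%, beside 10.3%), Irf8 by 1.11 ± 0.26 (limma, adjusted p = 0.018) and Irf4, which measured 0.75 to 3.82 TPM in FL lines and 0 to 0.03 TPM in BM lines. Jak1 exceeded BM lines by 0.44 ± 0.16 in YS lines (limma, adjusted p = 0.066) and by 0.66 ± 0.16 in FL lines (limma, adjusted p = 0.019), below the 2-fold minimum in both. The receptors for interferon gamma showed YS minus BM differences of -0.31 ± 0.15 for Ifngr1 (limma, adjusted p = 0.16) and 0.37 ± 0.13 for Ifngr2 (limma, adjusted p = 0.061). Between YS and FL lines 0 of 12 were called by limma, beside 3.79% of all tested genes. An unadjusted p under 0.05 in limma was reached by 3 of 12, beside 3016 of all 11753 tested genes. At the false discovery rate alone 1 of 12 passed, beside 12.8% of all tested genes. Without BM line 2 the counts of called genes in the 3 comparisons were 2, 2 and 0.

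Upstream of the IRFs, 9 of 21 genes that sense nucleic acids or relay to interferon induction were called between YS and BM lines (42.9%, beside 12.8% of all tested genes) and 6 of 21 between FL and BM lines (28.6%, beside 10.3%), all higher than in BM lines, with list medians of 0.75 and 0.54. Those called between YS and BM lines were nucleic acid sensors, Ifih1 among them, and Tmem173. None of the other adaptors and kinases of the list was called there. Between FL and BM lines the adaptor Ticam2 was called too (1.22 ± 0.26, limma, adjusted p = 0.014). Of the 21, 13 lay wholly above and 3 wholly below BM lines in YS lines, beside 3556 and 2201 of all 11753 tested genes. Those 3 were relay genes. Tlr7, the endosomal receptor for single-stranded RNA that signals to IRF5 and IRF7, measured 96.4, 171 and 329 TPM in YS lines 1 to 3, 129, 104 and 135 TPM in FL lines 1 to 3, and 0.12, 19.6 and 0.04 TPM in BM lines 1 to 3. Tmem173, which encodes STING and leads to IRF3, was 1.89 ± 0.37 higher in YS and 1.80 ± 0.37 higher in FL lines than in BM lines (limma, adjusted p = 0.0084 and 0.011). Tlr9, a receptor for DNA, was called in both YS comparisons, being 3.33 ± 0.61 above BM lines (limma, adjusted p = 0.0067) and 2.44 ± 0.61 above FL lines (limma, adjusted p = 0.058), the latter not without YS line 1, FL line 2, FL line 3 or BM line 1 (1.87 to 2.52). The FL against BM count of 6 was 3 without FL line 1, 3 without BM line 1 and 2 without BM line 3, and without BM line 2 the counts were 9 and 7.

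Among 18 genes that restrain the pathway, 16 were tested, and 4 were called between YS and BM lines (25%, beside 12.8% of all tested genes), all higher in YS lines. They were Usp18, which blocks signalling at IFNAR2, by 2.64 ± 0.81 (limma, adjusted p = 0.041), Trex1, Socs1 and Trim21, with differences of 1.45 ± 0.39, 1.40 ± 0.53 and 1.03 ± 0.34 (limma, adjusted p = 0.026, 0.081 and 0.055). The list as a whole moved little: its median was 0.28, beside 0.11 for all tested genes. Of the 16 differences 11 were positive, beside 6905 of 11753. In YS lines 8 of the 16 lay wholly above BM lines and 2 wholly below, beside 3556 and 2201 of all tested genes. The count was 2 without YS line 2, 1 without YS line 3, 2 without BM line 1, 1 without BM line 3 and 4 without BM line 2. In the other comparisons limma called 0 of 16, beside 10.3% (FL against BM) and 3.79% (YS against FL) of all tested genes. An unadjusted p under 0.05 in limma was reached by 7 of 16 (FL against BM) and 3 of 16 (YS against FL). Of all 11753 tested genes, 3952 and 3016 reached it. The FL against BM count of called genes was 3 without FL line 2 and 1 without BM line 2. Usp18 itself measured 125, 267 and 491 TPM in YS lines 1 to 3, 250, 66.4 and 196 TPM in FL lines 1 to 3, and 47.4, 103 and 12.6 TPM in BM lines 1 to 3, again in the order of Stat2 within each origin.

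Of 20 interferon genes, 11 were listed at 0 in every library and only Ifnb1 reached 1 TPM, while no other exceeded 0.6 TPM. Ifnb1 measured 0.6, 1.9 and 4.95 TPM in YS lines 1 to 3, 3.2, 0 and 1.91 TPM in FL lines 1 to 3, and 0.21, 0.2 and 0 TPM in BM lines 1 to 3. All YS lines lay above all BM lines, and the line with the most and the line with the least Ifnb1 among YS and among FL lines were those with the most and the least Stat2. Among BM lines both were lowest in line 3, but Stat2 was highest in line 2 and Ifnb1 in line 1, at values near 0. The difference between YS and BM lines was 1.42 ± 0.60 (limma, adjusted p = 0.11) and was not called.

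Markers of other cells were compared with the same lines. Siglech, a defining marker of plasmacytoid dendritic cells, which carry much Irf7, was at most 0.06 TPM, although 2 of the 5 listed markers of these cells reached 1 TPM and their sum was 46.3 to 54.4 in YS, 37.5 to 43.3 in FL and 39.6 to 44.8 TPM in BM lines, nearly all of it Tcf4. Conventional dendritic cell markers reached 1 TPM for 1 of 5 genes, and summed to 7.23 to 8.29 TPM in YS, 2.97 to 6.89 in FL and 3.21 to 3.74 TPM in BM lines. Endothelial markers, with 3 of 4 genes reaching 1 TPM, summed to 5.37 to 56 TPM in YS, 18.9 to 51.8 in FL and 0.08 to 1.7 TPM in BM lines, through Kdr (0.29 to 54.4 TPM in YS lines, 17.4 to 50.4 in FL lines) and, in YS lines 1 and 2, Pecam1 (4.91 and 8.17 TPM), with Tek at or below 0.04 TPM. Erythroid markers summed to 229 TPM in BM line 2 and to at most 15.5 TPM elsewhere. Neutrophil markers reached 1 TPM for 1 of 7 genes, S100a8, and hepatocyte markers for 1 of 4. The part of these cells in the differences in Irf7 and Stat2 was not tested, and in bulk libraries more cells of a type and more RNA per cell cannot be told apart.

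Exons of 6 of the 9 genes share bases with another gene in GENCODE M21. The overlap is with a gene on the opposite strand for Irf1, Irf3, Irf5 and Irf7, at 1.19% to 14.1% of exonic bases, the largest for Irf5, and on the same strand for Irf9 with Rnf31 (2.28%) and for Ifnar2 with Gm21970 (9.46%). Reads from such bases cannot be assigned to 1 gene with certainty where the strand is shared. Stat2, Irf2 and Ifnar1 share none.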

How the data were processed

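RNA-seq libraries of 3 YS, 3 FL and 3 BM lines were compared. The authors prepared poly(A)-selected directional libraries and deposited a table of TPM values with 2 decimals. The submitters' processing notes name Trim Galore 0.6.6, STAR 2.7.9a and RSEM 1.3.3, and the genome build and annotation are not given in the sources used here. Each library sums to 1000000 TPM. Depth is unknown, so no counting error is given, and the spread among lines is the only measure of precision. Tests used limma 3.58.1 in R 4.3.3 on log2(TPM + 1) of all 9 libraries with a variance trend, for genes at 1 TPM or more in at least 3 libraries, with Benjamini-Hochberg adjustment over all 11753 genes; fold changes on this scale understate changes of low genes. Calls needed both a false discovery rate below 0.1 and more than a 2-fold difference. The fit was tested on simulated data. Ratios within a line were compared by exact two-sided permutation. Group labels came from the sample titles.

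The members and gene lists were chosen with earlier results of these data known. All 9 genes are named. Of the lists of partners, induction genes, targets and brakes, called genes with the largest differences (up to 8 per list and comparison) may be named, besides Jak1, Tyk2, Ifngr1, Ifngr2 and Irf8, and ligands at 1 TPM or more. 1 gene of the partner list is not reported here. Irgm2 and Gm3604 were named by likeness, and Csf1r, Hba-a1, Kdr, Tek, Tcf4, Siglech and S100a8 as markers. Promoter windows were those of RefSeq on GRCm38.p6, matched by symbol (9 of 9 genes). The 20 alternatives varied the pseudocount, filter, normalization, variance model, samples and thresholds.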

Additional observations from a re-analysis of the deposited data

How the results depend on the processing

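Each of the 27 log2 differences of the 9 genes was recomputed in 20 alternatives, giving 540 values, of which 493 kept both sign and call, 13 lost a call, 11 gained one and 23 changed sign, the last all at differences that were not called. Among other named genes 881 of 978 values kept both, 89 lost a call, 4 gained one and 4 changed sign (Ifngr1). The count of the 9 genes called between YS and BM lines was 2, ranged from 1 to 4 when 1 line was left out and was 5 with no fold minimum. Between FL and BM lines it was 1, ranged from 0 to 2 when 1 line was left out, was 0 with no expression filter, quantile normalization, median-of-ratios scaling, no variance trend, the replicate block or a false discovery rate of 0.05, and was 3 with no fold minimum. With no fold minimum 37.9% (YS against BM), 27.6% (FL against BM) and 12.8% (YS against FL) of all tested genes passed. Beside these, the partner counts were 8, 9 and 1 of 12 and the induction counts 16, 13 and 2 of 21. The brake counts were 8, 5 and 2 of 16, and 1 of 44 targets passed between YS and FL lines. The YS against BM partner count was 1 under quantile normalization, and the FL against BM partner count was 1 with a pseudocount of 4, a filter at 5 TPM or only the 2 groups compared. The FL against BM target count was 4 with no filter, with the replicate block and at a false discovery rate of 0.05, the YS against BM brake count 2 with a pseudocount of 4, quantile normalization or a rate of 0.05, and the YS against FL induction count 0 with only the 2 groups or a rate of 0.05. Leaving out 1 line gave induction counts of 2 to 7 (FL against BM) and 0 to 2 (YS against FL), target counts of 14 to 41, 1 to 11 and 0 to 3 in the 3 comparisons, and brake counts of 1 to 4 (YS against BM) and 0 to 3 (FL against BM). Under quantile normalization and median-of-ratios scaling the FL minus BM differences became -0.021 and -0.002 for Irf1, -0.068 and -0.084 for Ifnar2 and -0.047 and -0.078 for Ifngr1, and the YS minus BM difference of Ifnar2 became -0.045 and -0.051; median-of-ratios scaling gave -0.015 for Irf5 in YS minus FL lines. Leaving out 1 line gave -0.058 to 0.253 for Irf1, -0.140 to 0.101 for Ifnar2 and -0.128 to 0.163 for Ifngr1 (FL minus BM), -0.080 to 0.097 for Irf3, -0.186 to 0.219 for Irf5, -0.364 to 0.031 for Ifnar1 and -0.038 to 0.203 for Ifnar2 (YS minus FL), and -0.241 to 0.153 for Ifnar1 and -0.002 to 0.117 for Ifnar2 (YS minus BM). It moved the log2 ratio of Irf7 to Irf3 between 1.209 and 2.612 (YS minus BM), 0.197 and 1.600 (FL minus BM) and 0.408 and 1.427 (YS minus FL), that of Irf1 to Irf2 between -0.827 and 0.117 (YS minus BM) and between -0.419 and 0.525 (YS minus FL), and that of Ifnar1 to Ifnar2 between -0.342 and 0.155 and between -0.453 and 0.044. Line numbers do not pair the cultures: deviations of same-numbered lines correlated between -0.118 and 0.088, and not every line correlated best with its own number. The replicate block changed the number of genes called from 1504, 1211 and 446 to 1503, 1191 and 409. The causes of these changes were not tested. TPM keeps no depth, so the precision of low values, such as those of Ifnb1 and Irf4, cannot be stated.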
